A study of Rattus norvegicus with 9 samples.

Results

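The nuclear genes for mitochondrial ribosomal proteins were followed across 9 hypothalamus arrays, each from a different male rat aged 13 weeks. The genes were chosen by symbol, as every probe set whose single annotated symbol was Mrpl or Mrps with a number and at most 1 further letter. This gave 73 of the 14217 named genes, by 97 of the 31042 probe sets of the array. Subunits were assigned by symbol alone. The large subunit here means the 58 probe sets of 46 Mrpl genes. The small subunit means the 39 probe sets of 27 Mrps genes, and the place of each protein in the ribosome was not checked. A probe set is a group of short array probes that together measure 1 transcript or a part of it. The choice used names and no measured value, although it was made with earlier results of these data known.

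All rats ate a medium-fat diet holding 30% instant noodle by weight, with fat giving 26% of its energy. The 4 rats called noodle here received it with the seasonings, and the 5 control rats received it without them. Both groups thus ate noodle, and noodle against control means with against without the seasonings. The period is given as 30 days in one label and 4 weeks in another, and pair-feeding held intake near 60 g of diet per kg of body weight each day. The labels name single animals and no transgene, and the rats' strain is not stated in the sources used. The comparison asks whether the seasonings alter hypothalamic transcripts.

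The mitochondrial ribosome translates the few messenger RNAs encoded by mitochondrial DNA, all of which specify subunits of the oxidative phosphorylation complexes. Its ribosomal RNAs are mitochondrial, but its proteins are encoded in the nucleus, made in the cytosol and imported. The small subunit decodes the messenger, and the large subunit joins the amino acids and releases the chain through an exit tunnel. Neurons depend heavily on oxidative phosphorylation, so these genes are expressed in brain as in most tissues. In a block of tissue, fewer cells of a type and less RNA per cell cannot be told apart.

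The deposited log2 values lay between 5.13 and 13.66, with array medians of 6.777 to 6.785 and pairwise correlations of at least 0.997. No detection call comes with the values, and the number of arrays limits the precision. The tissue label was checked against 10 genes of hypothalamic neurons, among them Hcrt, Pmch, Avp and Oxt: each was measured, and all but Pomc lay above the median probe set. No marker gene is listed at 0, which the lowest value of 5.13 fixes in advance.

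Most deposited values hardly moved between rats. How the authors turned probe signals into these values is not stated, and whether that step made them flat was not tested, so a compressed probe set does not show that its transcript was constant. A probe set is called variable where its range over the 9 rats exceeded 0.05 log2 units and compressed where it stayed under 0.01, limits chosen after values of this series had been seen. By these limits 94 of the 97 mitochondrial ribosomal protein probe sets (96.9%) were compressed, beside 95.9% of all probe sets. The variable ones were Mrpl50, Mrpl22 and Mrpl54, all of the large subunit. The large subunit thus had 3 of 58 variable probe sets (5.17%), the small subunit 0 of 39, and the whole array 3.94%. Differences in compressed members are printed for their direction and test, and are not fold changes of a transcript.

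**Figure D1:**
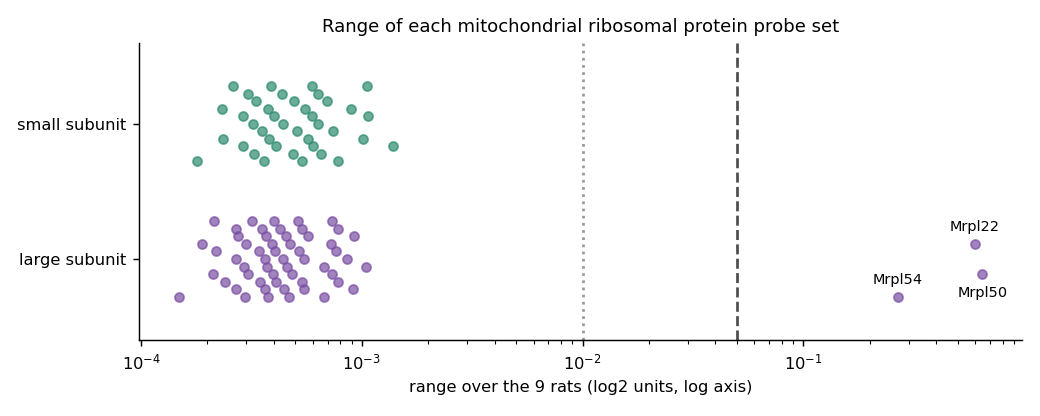
Range of each mitochondrial ribosomal protein probe set over the 9 rats in log2 units (log axis), with 58 large-subunit and 39 small-subunit points spread vertically only for legibility. The dotted line is the compressed limit of 0.01 and the dashed line the variable limit of 0.05; Mrpl54, Mrpl22 and Mrpl50 stand alone on the right, and no point lies between the lines.

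The gap between the classes was wide. The variable member nearest to the limit was Mrpl54, with a range of 0.268, and the compressed member nearest to it was 1 of the 3 probe sets of Mrps2, with a range of 0.00139. The members had a median range of 0.000442 (quartiles 0.000331 and 0.000635), against 0.000518 for all probe sets. The compressed small-subunit probe sets had a median range of 0.000487 and the compressed large-subunit ones 0.000407. Mrpl33 had the smallest range of the members, at 0.000149, and the ranges of Mrps24 (0.000179) and Mrpl23 (0.000188) were close to it. The 3 variable members therefore ranged 605 to 1460 times as far as the median member.

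Stretches upstream of the variable members are printed because these are the members whose values could show a difference, and so that the letters near their starts can be compared. They come from RefSeq on build GRCr8, read 5′ to 3′ on the gene's strand, and for Mrpl50 and Mrpl54 they cover the bases between the gene and its neighbour in the annotation (Zfp189 and Apba3). Mrpl50 is at chr5:68668088-68668224, minus strand, and Mrpl54 at chr7:9103458-9103524, plus strand. For Mrpl22 only 30 bases just before its start are given, at chr10:42845870-42845899, plus strand, because the annotation also places Mrpl22 sequence further upstream. Capitals mark the longest run of letters that the Mrpl50 and Mrpl54 windows share upstream of the start, and in Mrpl22 the core bound by NRF1.
Mrpl50: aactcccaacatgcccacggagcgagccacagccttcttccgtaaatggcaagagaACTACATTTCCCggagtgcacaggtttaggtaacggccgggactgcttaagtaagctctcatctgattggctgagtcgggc
Mrpl54: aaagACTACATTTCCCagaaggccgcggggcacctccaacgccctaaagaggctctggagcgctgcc
Mrpl22: agcctcggactGCGCATGCgtgcaggcagc

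The run ACTACATTTCCC, which resembles the element bound by the zinc finger factor ZNF143, stands upstream of both Mrpl50 and Mrpl54. Searched on both strands in windows from 250 bases before to 50 after each start, it was found in 3 of 61 windows of these genes (4.92%), those of Mrpl34, Mrpl50 and Mrpl54. It was found in 0.466% of all 33469 windows and in 0.654% of the 21851 windows of protein-coding genes. This run was chosen because it is shared, so its presence in Mrpl50 and Mrpl54 is no finding, and the probe set of Mrpl34 was compressed.

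Further patterns belong to factors known to act at genes for mitochondrial proteins, and a match is a description of letters, not of binding. CCGGAAG, the core of ETS factors such as GABPA, stood in 20 of 61 windows (32.8%), against 8.75% of all windows and 10.7% of protein-coding ones. AAGATGGCG, the core of YY1, stood in 8 of 61 (13.1%), against 1.73% and 2.07%, and Mrpl50 was among the 8. GCGCATGC, the core of NRF1, stood in 5 of 61 (8.2%), against 2.47% and 3.11%, in Mrpl17, Mrpl22, Mrpl32, Mrpl44 and Mrps18b. The large subunit had CCGGAAG in 13 of 39 windows and the small subunit in 7 of 22.

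General promoter elements were nearer to the shares of other genes. CCAAT stood in 44.3% against 38% of protein-coding windows, GGGCGG in 49.2% against 41.8%, and TATAAA in 13.1% against 13%. The median content of G and C was 56% in the windows of these genes and 55% in protein-coding ones. Windows were available for 59 of the 73 genes, GGGCGG can fall in a run of G and C of any origin, and the 7 patterns were searched without a test.

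Of the variable members, Mrpl50 measured higher in the noodle rats. Mrpl50 is a protein of the large subunit that mitochondrial ribosomes have and bacterial ones lack. Its variable probe set measured 7.44, 7.53, 7.36 and 7.31 in noodle rats 1, 4, 7 and 13, and 7.39, 6.999, 6.90, 6.88 and 7.03 in control rats 2, 5, 8, 11 and 14. The noodle rats lay close together and 4 of the 5 controls were lower than any of them, while control rat 2 lay within the noodle values. The means were 7.41 ± 0.092 (SD, n = 4) and 7.04 ± 0.21 (SD, n = 5). The difference was 0.37 log2 units (SE 0.11, 95% interval 0.13 to 0.62), a ratio of 1.3 if the deposited scale is a plain log2 scale.

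By limma this difference had an unadjusted p of 0.00857 and an adjusted p that rounds to 1 over the 31042 probe sets. The unadjusted p was 8.67e-05 without control rat 2, with a difference of 0.46, and that p does not pass after adjustment either (limma adjusted p rounding to 1). With any other single rat left out, limma's unadjusted p rose instead, to between 0.0127 (without noodle rat 13) and 0.0269 (without noodle rat 4). A further probe set of Mrpl50 was compressed, ranging over 0.000404, with means of 8.17048 ± 3.3e-05 in noodle and 8.17029 ± 0.00017 in control rats. It pointed the same way, by 0.00019 (SE 8.5e-05), on the deposited values, and the other way, by -0.00092, after quantile normalization. Its correlation with the variable Mrpl50 probe set over the 9 rats was 0.45.

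Mrpl22 differed in the opposite direction. It is the mitochondrial member of a ribosomal protein family that lines the exit tunnel of the large subunit. It measured 8.14, 7.97, 8.12 and 8.34 in noodle rats 1, 4, 7 and 13, and 8.55, 8.33, 8.40, 8.33 and 8.57 in control rats 2, 5, 8, 11 and 14. Here 3 of the 4 noodle rats were lower than every control, and noodle rat 13 lay among the lower controls. The means were 8.14 ± 0.15 and 8.44 ± 0.12, a difference of -0.29 (SE 0.085, 95% interval -0.49 to -0.094) and a ratio of 0.817. By limma the unadjusted p was 0.00952 and the adjusted p rounds to 1. Mrpl22 has 1 probe set, and no other is named for it.

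Mrpl54, another large-subunit protein particular to mitochondrial ribosomes, measured 9.06, 9.23, 9.14 and 9.11 in noodle rats 1, 4, 7 and 13, and 9.10, 9.32, 9.18, 9.19 and 9.05 in control rats 2, 5, 8, 11 and 14. The groups overlapped over most of their range, and controls held both the highest and the lowest rat. The means were 9.13 ± 0.069 and 9.17 ± 0.10, a difference of -0.032 (SE 0.057, 95% interval -0.16 to 0.10; limma unadjusted p = 0.585, adjusted p rounding to 1). Without control rat 5 the difference was 0.0051.

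**Figure D2:**
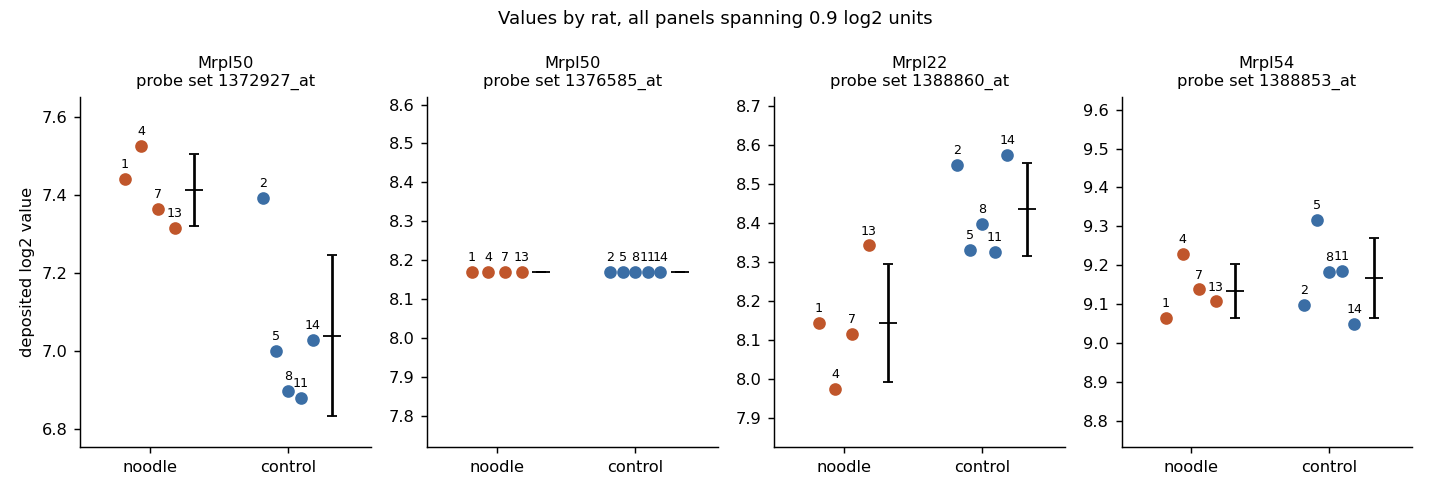
Deposited log2 values of both Mrpl50 probe sets, Mrpl22 and Mrpl54 in each rat (points, with rat numbers), with mean and SD beside each group of 4 noodle and 5 control rats. Every panel spans the same 0.9 log2 units; the compressed Mrpl50 probe set lies on a flat line at 8.17, the variable one is higher in the noodle rats except for control rat 2, and Mrpl22 is lower in the noodle rats except for rat 13.

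Read against the whole array, these differences do not pass. Of the 31042 probe sets, limma called 0 (0%) at an adjusted p under 0.05, while 712 (2.29%) fell below 0.05 before adjustment. Among the members 0 of 97 passed and 4 of 97 (4.12%) had an unadjusted p under 0.05, with 2 higher (0.944% of all probe sets) and 2 lower (1.35% of all). These were Mrpl50 and Mrps35 on the higher side and Mrpl22 and Mrpl44 on the lower side. After quantile normalization, and likewise with a common array median, 2 members had an unadjusted p under 0.05 by limma, Mrpl50 and Mrpl22. In no member did the noodle and control rats separate without overlap, against 0.567% of all probe sets. Of the 1223 variable probe sets, 11 (0.899%) reached an unadjusted p under 0.05 and 1 (0.0818%) had groups that did not overlap, and Mrpl50 and Mrpl22 ranked the second and the third by p.

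No relation between the variable members across rats passed its test. Mrpl50 and Mrpl22 had a Pearson r of -0.53 over the 9 rats (exact permutation p = 0.139, adjusted over 3 pairs 0.417) and a Spearman rho of -0.42 (exact permutation p = 0.27, adjusted 0.404). The r was -0.61 without the 2 rats farthest from the median of Mrpl50. Both genes were noticed for opposite diet differences, which by itself gives a negative sign. For Mrpl50 and Mrpl54 r was -0.29 and rho -0.27 (exact permutation p = 0.452 and 0.493, adjusted 0.452 and 0.493; r = -0.20 without the 2 farthest rats). For Mrpl54 and Mrpl22 r was -0.32 and rho -0.48 (exact permutation p = 0.407 and 0.194, adjusted 0.452 and 0.404; r = -0.20 without the 2 farthest).

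On the deposited scale compressed members split nearly evenly by direction, and other scalings changed that split. Of the 94, 48 were higher and 46 lower in the noodle rats (51.1% higher, against 47.9% of all compressed probe sets). Differences ran from -0.00027 (Mrpl44) to 0.00027 (Mrpl32). Over all 97 members 49 were higher as deposited, 15 after quantile normalization and 68 with a common array median. In the large subunit 27 of 55 compressed probe sets were higher and in the small subunit 21 of 39. With the variable ones included, the large subunit had 28 of 58 higher, with a median difference of -1.5e-05. The small subunit had 21 of 39 higher, with a median difference of 6.7e-06, beside -4.6e-06 over all probe sets. The difference between the subunits was not tested.

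**Figure D3:**
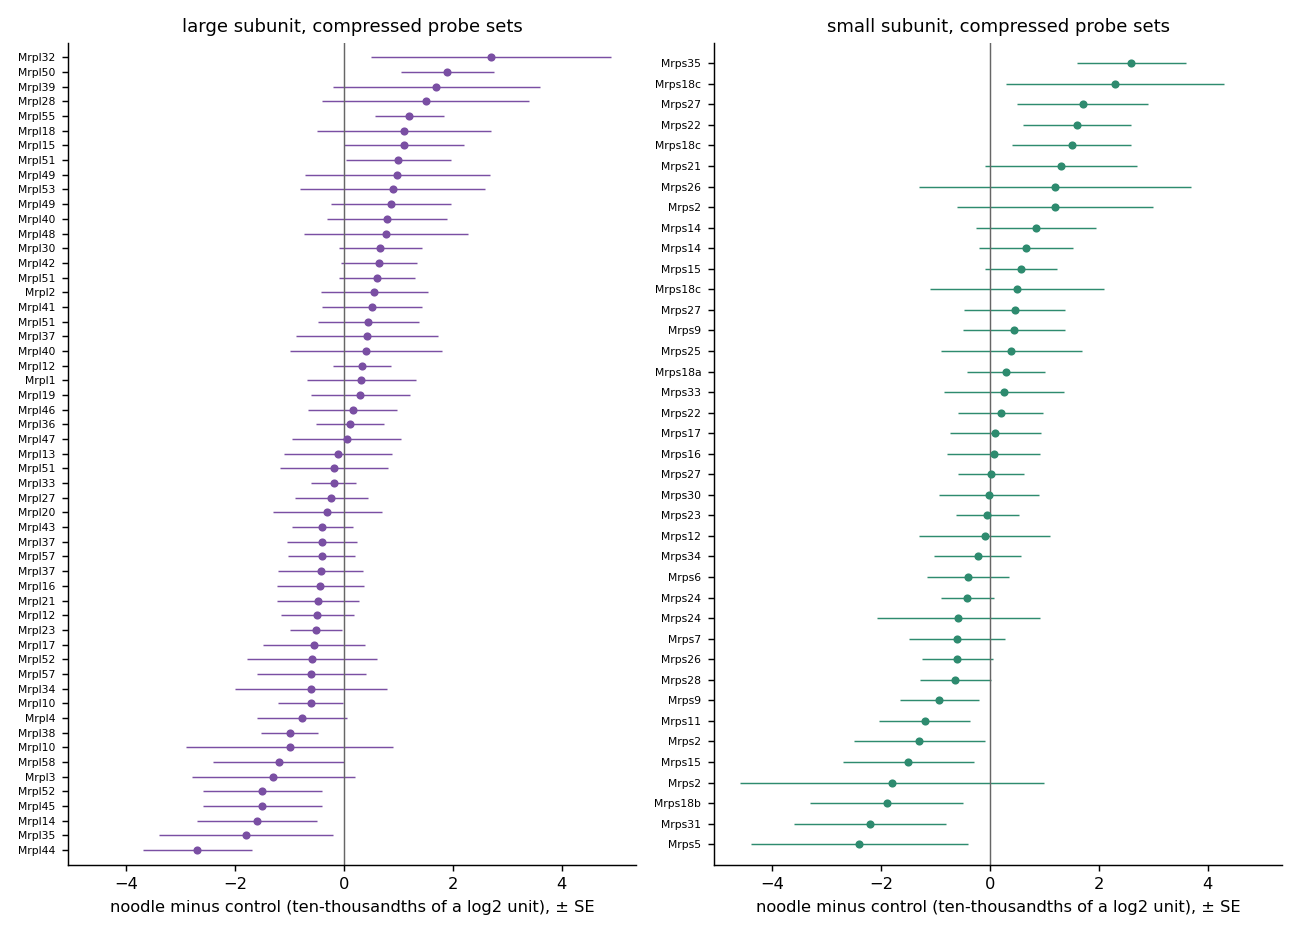
Difference between diets (noodle minus control, in ten-thousandths of a log2 unit, with the SE of the limma fit) for the 55 large-subunit and 39 small-subunit compressed probe sets, sorted within each subunit; a gene appears once for each of its probe sets. On this deposited scale the points run through 0 in both subunits, within 0.00027 log2 units of it.

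On the deposited values the compressed members of lowest p were Mrps35, Mrpl50, Mrpl55, Mrps22 and Mrps27 on the higher side and Mrpl44, Mrpl38, Mrps31, Mrpl14 and Mrps11 on the lower side. Mrps35, Mrps22 and Mrps31 are small-subunit proteins that mitochondrial ribosomes have and bacterial ones lack, and Mrps27 is a pentatricopeptide repeat protein. Mrpl14 and Mrps11 belong to families that bacterial ribosomes share. Mrps35 differed by 0.00026 (SE 0.00010, limma unadjusted p = 0.0339), with 8.28400, 8.28377, 8.28410 and 8.28412 in noodle rats 1, 4, 7 and 13, and controls from 8.28361 to 8.28399. The controls reached into the noodle values only through rat 14, at 8.28399.

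Mrpl44, which carries a fold of the ribonuclease III family, differed by -0.00027 (SE 0.00010, limma unadjusted p = 0.0327). It measured 7.60167, 7.60157, 7.60126 and 7.60138 in noodle rats 1, 4, 7 and 13, and 7.60166 to 7.60198 in the controls. Noodle rat 1 stood inside the control values and the other noodle rats below them. The remaining 8 had unadjusted p-values of 0.0559 to 0.202 by limma. After quantile normalization all 5 of the higher side pointed lower, by -0.0016 (Mrpl55) to -0.00015 (Mrps27), while the 5 of the lower side stayed lower, by -0.00083 (Mrpl38) to -0.00028 (Mrpl14). No direction of a compressed member is therefore given as a property of its gene.

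Of the 73 genes 18 had more than 1 probe set: 13 had 2, 4 had 3 and Mrpl51 had 4. In 11 of the 18 all probe sets pointed the same way between diets, among them Mrps18c (3 higher, 0.000050 to 0.00023), Mrps27 (3 higher) and Mrpl10 (2 lower). In 7 they did not, among them Mrps2, Mrpl37 and Mrpl12, a protein of the ribosomal stalk. After quantile normalization the probe sets of 9 of the 18 pointed one way. Probe sets can point one way by chance, and the number expected so was not computed, so these counts are a description.

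Across the 9 rats, probe sets of the same gene had correlations much like those of different genes. The 31 pairs within a gene had a median r of 0.02 (quartiles -0.28 and 0.37) and 54.8% were positive. The 4625 pairs between different member genes had a median of 0.04 (quartiles -0.25 and 0.31) and 53.5% were positive. The pairs of Mrpl51 alone ran from -0.52 to 0.92. These correlations share the 9 arrays and are given as a description.

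Every probe set listed for genes that work with the mitochondrial ribosome was compressed. Of 5 probe sets of ribosomal proteins that carry other symbols 1 was higher in the noodle rats, with Aurkaip1 at -0.00018 (SE 8.1e-05). Of 21 probe sets of mitochondrial translation factors 9 were higher, and Taco1, an activator of cytochrome oxidase translation, had the lowest p (-0.00012, SE 6.7e-05). Of 22 for mitochondrial aminoacyl-tRNA synthetases and the amidotransferase 10 were higher, and Vars2, the valyl enzyme, had the lowest p (-0.00024, SE 9.3e-05, limma unadjusted p = 0.0338). Of 27 for assembly and ribosomal RNA modification 10 were higher, with Mrm1, a ribosomal RNA methyltransferase, at -0.00032 (SE 0.00016). In each of these lists 0 passed limma's adjusted test in either direction, and 0, 0, 1 and 0 had an unadjusted p under 0.05.

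The same held upstream and downstream of translation. For mitochondrial transcription and DNA maintenance 5 of 12 probe sets were higher, with the transcription factor Tfam at -7.5e-05 (SE 3.8e-05). For regulators of nuclear genes for mitochondria 7 of 15 were higher, with Nrf1 at -0.00029 (SE 0.00018). For oxidative phosphorylation, which holds the partners of the proteins this ribosome makes, 24 of 49 were higher, with Uqcrc2, a core protein of complex III, at 0.00012 (SE 6.9e-05). None of these 3 lists had a variable probe set, and limma called 0 in them, before or after adjustment, at 0.05.

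Cytosolic ribosomal proteins gave a comparison of like kind. Of their 54 probe sets 4 were variable (7.41%), Rps24, Rpl22, Rpl11 and Rps15, from both subunits, with diet differences of -0.046 (Rps15) to 0.020 (Rpl11). Their ranges were at most 0.269, about that of Mrpl54 (0.268), while Mrpl50 (0.647) and Mrpl22 (0.600) went beyond them. Of the 54, 24 were higher and 30 lower, 1 had an unadjusted p under 0.05 by limma (Rpl26l1, compressed) and 0 passed.

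The genes on either side of the variable members on the chromosome were mostly compressed. Of the 10 protein-coding genes on each side in the GRCr8 annotation, 12 around Mrpl50 were measured, by 19 probe sets, and none of these was variable. Around Mrpl54, 1 of 29 probe sets was variable, that of the adjoining gene Matk, a tyrosine kinase, with a range of 0.073 (r with Mrpl54 0.48, rho 0.45, over 9 rats). Around Mrpl22, 2 of 25 were variable (8%), those of Irgm2, an interferon-induced GTPase, and of Mfap3, beside 3.94% of all probe sets.

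Mfap3 lies 9 protein-coding genes before Mrpl22 and ran against it. It measured 7.10, 7.26, 7.09 and 6.73 in noodle rats 1, 4, 7 and 13, and 6.23, 6.86, 6.57, 6.70 and 6.77 in control rats 2, 5, 8, 11 and 14. Noodle rats 1, 4 and 7 were high for Mfap3 and low for Mrpl22, and noodle rat 13 stood with the controls for both. Over the 9 rats r was -0.86 and rho -0.75. The diet difference of Mfap3 was 0.42 (SE 0.15). Mfap3 was singled out after its values had been seen, as 1 of the 3 lowest of 935 correlations with Mrpl22, so its correlation and difference are descriptions with no test. A further Mfap3 probe set was compressed (range 0.00125). Irgm2, 3 genes after Mrpl22, had r = -0.45 and rho = -0.20.

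**Figure D4:**
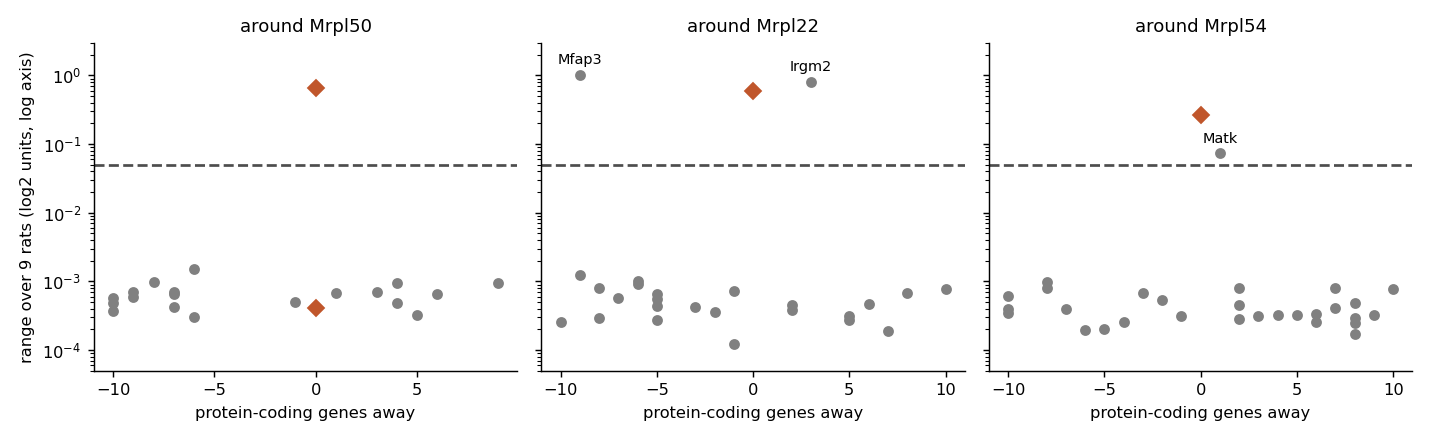
Range over the 9 rats (log2 units, log axis) of every probe set named for the 10 protein-coding genes on each side of Mrpl50, Mrpl22 and Mrpl54 (grey), with the probe sets of the member itself as orange diamonds, plotted by gene order. The dashed line is the variable limit of 0.05; above it lie only Mfap3 and Irgm2 near Mrpl22, Matk near Mrpl54, and the members themselves, while 1 Mrpl50 probe set lies among its compressed neighbours.

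Among the 935 variable probe sets of other named genes, those most like Mrpl50 by Pearson correlation over the 9 rats were RT1-T24-4 (r = 0.79, rho 0.83), a histocompatibility gene, Arsb (0.75, 0.68), a lysosomal sulfatase, and Ctnnd2 (0.68, 0.72), a neuronal catenin. Those most like Mrpl22 were Pagr1 (r = 0.84, rho 0.87), the complement gene C1qc (0.74, 0.67) and Eif3c (0.74, 0.60), a subunit of a cytosolic translation initiation factor. Those most like Mrpl54 were a myelin basic protein (Mbp) probe set (r = 0.83, rho 0.78), Trim2 (0.80, 0.85) and Col19a1 (0.77, 0.92). Being the highest of many, these values carry no p.

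Markers of cell types were set beside the variable members as the mean deviation of each list's variable probe sets. The endothelial list had 0 variable probe sets and the erythroid and choroid plexus lists 1 each, so these lists were left out. Over the other 6 lists and 3 members, 18 relations, the smallest adjusted exact permutation p was 0.907 for Pearson's r and 0.852 for Spearman's rho. Mrpl22 and the microglia list, 6 of whose 10 probe sets were variable, had r = 0.54 (exact permutation p = 0.137, adjusted 0.907) and rho = 0.58 (exact permutation p = 0.108, adjusted 0.852), with r = 0.48 without the 2 farthest rats. Of those 6 probe sets 1 was higher in the noodle rats. The list's mean deviation ran from -0.12 to 0.04 in noodle rats and from -0.05 to 0.16 in controls. For Mrpl22 and the neuron list r was nearly as large in size, at -0.52 (exact permutation p = 0.154, adjusted 0.907). The rho was -0.42 (exact permutation p = 0.27, adjusted 0.852), and r was 0.09 without the 2 farthest rats. The part of microglia in the Mrpl22 difference was not tested.

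Mrpl54 and the oligodendrocyte list, all 11 of whose probe sets were variable, had r = 0.42 (exact permutation p = 0.257, adjusted 0.907) and rho = 0.40 (exact permutation p = 0.291, adjusted 0.852). Without the 2 rats farthest from the median of that list r was 0.92, so the size of r depends on those rats. The list's mean deviation ran from -0.09 to 0.16 in noodle rats and from -0.23 to 0.37 in controls. For Mrpl50 the largest r in size was with microglia, at -0.37 (exact permutation p = 0.312, adjusted 0.907; rho -0.33, exact permutation p = 0.385, adjusted 0.852; r = -0.03 without the 2 farthest rats).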

How the data were processed

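Per the labels' protocols, TRIzol extracts were column-purified and 100 ng of total RNA gave biotin-labelled cRNA. The authors deposited log2 values of 31099 probe sets per array; log2 was inferred from the range, and summarization and normalization are not stated in the sources used. The 57 control probe sets were left out and values used without rescaling. Symbols came from the platform annotation and matched the GRCr8 gene table for all 97 members. The diets were compared with limma 3.58.1 in R 4.3.3 (lmFit, eBayes with intensity trend, 2-sided), tested on simulated data, with Benjamini-Hochberg adjustment over 31042 probe sets. The p-values of limma rest on the spread of deposited values among the 9 animals. Each probe set's variance was drawn toward a trend fitted over all 31042 probe sets, most of them compressed. Correlations used exact permutation. Members and lists were chosen with earlier results of these data known. The text names all variable members, their further probe sets, the 5 compressed members of lowest p per direction, the 3 most similar variable genes, and each list's variable or lowest-p member. Alternatives were quantile normalization, a common array median, other variance models, array weights, filters and leaving out each rat. The log2 scale limits what a ratio means.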

Additional observations from a re-analysis of the deposited data

Results flagged for a closer look

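Each diet's values of the 3 variable members, of the further Mrpl50 probe set and of the other compressed probe sets named were searched for a rat far from the rest of its diet. Of 26 groups 2 held one, where chance gives about 1 in 20. In Mrpl50, control rat 2 stood at 7.39, with the other controls at 6.88 to 7.03. In Mrpl44, a compressed probe set, control rat 14 stood at 7.60198, with the other controls at 7.60166 to 7.60171.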

How the results depend on the processing

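In every alternative run, 0 probe sets passed limma at an adjusted p under 0.05, and 0 members did at 0.10 on the deposited values; at an unadjusted p under 0.05 there were 712, 127 after quantile normalization and 16 with a common array median. Over the 7 alternatives that keep all rats Mrpl50 stood at 0.32 to 0.37 and Mrpl22 at -0.29 to -0.25, and with each rat left out at 0.33 to 0.46 and -0.36 to -0.24. Mrpl54 ran from -0.064 to 0.0051, turning only without control rat 5. The count of 3 variable members held at limits of 0.02 and 0.10 and without each rat. Directions of compressed members depended on scaling. As deposited, 49 of 97 probe sets were higher in the noodle rats. The count was 15 after quantile normalization (48 changed sign, and 23.4% of all probe sets were higher). It was 68 with a common array median (69.7% of all). Over the variable probe sets alone 1 of 3 was higher. The median difference moved from -1.5e-05 to -0.00089 and 4.0e-05 in the large subunit, and from 6.7e-06 to -0.00056 and 6.1e-05 in the small. The common array median moved the difference of every probe set by the same 5.5e-05. The cause of the move after quantile normalization was not tested. With each rat left out 41 to 52 members were higher. By gene, 33 of 73 were higher by the mean of their probe sets and 35 by the probe set of highest mean. No paired analysis was possible because the diets share no rat numbers and the labels do not say which rats were fed as pairs.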
